A study of Mus musculus with 40 samples.

Results

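The genes described here encode the proteins of the mitochondrial ribosome whose mouse symbols start with Mrpl (large subunit) or Mrps (small subunit) followed by a digit. Pseudogene names ending in -ps were left out. The rule found 76 genes among the 23955 gene symbols of the count table, 47 of the large and 29 of the small subunit. Symbols and not measured values chose them, and 6 further mitochondrial ribosomal proteins that carry other names were kept as a separate list. The study measured polyadenylated RNA of the mouse hypothalamus in 40 strains, with 1 library per strain. They are 36 BXD lines (recombinant inbred strains made from a cross of C57BL/6J and DBA/2J, so that each line is homozygous for 1 parental allele at nearly every locus), the inbred parents C57BL/6J and DBA/2J, and the F1 hybrids of both crosses, B6D2F1 and D2B6F1. No agent, engineered allele or treatment is named for any strain, and ages and sexes are not given in the sources used here. RNA of 3 to 6 hypothalami was pooled for each BXD library; whether the parental and F1 libraries were pooled in the same way is not stated. With 1 library per strain, every error given over lines is the spread between strains, and no difference between 2 single strains has a replicate check.

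Mitochondrial ribosomes sit in the mitochondrial matrix and translate the few messenger RNAs of the mitochondrial genome, which encode core subunits of the respiratory chain complexes and of ATP synthase. All of their proteins are encoded in the nucleus, made in the cytosol and imported, while their ribosomal RNAs come from mitochondrial DNA. Low symbol numbers follow the bacterial ribosomal protein to which a member is related, and higher numbers were mostly given to proteins that bacteria lack. Neurons depend heavily on oxidative phosphorylation, and the promoters of many nuclear genes for mitochondrial proteins hold sites for NRF1, for ETS factors such as GABP, and for YY1.

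Promoters of 4 members are shown because their genes mark the ends of the patterns below: Mrpl43 and Mrps26 were among the members that followed the others most closely from line to line, and Mrpl32 and Mrpl1 among those that ran against them. Each stretch is the 150 bases before the RefSeq start on GRCm38.p6, with matches to the 3 searched motifs in capitals (GCATGCGC for NRF1, CCGGAAG for ETS factors, AAGATGGC for YY1, on either strand). Mrpl43 lies at chr19:45006443-45006592 on the minus strand, Mrps26 at chr2:130563607-130563756 on the plus strand, Mrpl32 at chr13:14613038-14613187 on the minus strand and Mrpl1 at chr5:96209965-96210114 on the plus strand.
Mrpl43: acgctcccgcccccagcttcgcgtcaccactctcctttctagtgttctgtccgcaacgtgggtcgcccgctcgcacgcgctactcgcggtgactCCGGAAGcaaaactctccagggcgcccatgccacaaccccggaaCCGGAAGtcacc
Mrps26: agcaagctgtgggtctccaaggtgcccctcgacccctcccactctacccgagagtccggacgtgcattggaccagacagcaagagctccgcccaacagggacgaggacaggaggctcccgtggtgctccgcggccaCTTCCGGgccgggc
Mrpl32: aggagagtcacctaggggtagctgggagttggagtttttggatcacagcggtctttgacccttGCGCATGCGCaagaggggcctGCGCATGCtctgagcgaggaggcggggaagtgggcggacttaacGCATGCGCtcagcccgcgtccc
Mrpl1: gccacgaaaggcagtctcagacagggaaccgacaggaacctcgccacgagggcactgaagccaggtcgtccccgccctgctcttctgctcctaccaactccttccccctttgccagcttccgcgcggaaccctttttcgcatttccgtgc
The Mrpl43 stretch holds 2 ETS matches, Mrps26 holds 1, on the other strand, and Mrpl32 holds 4 NRF1 matches, of which a pair overlap because the motif is nearly its own reverse complement. The Mrpl1 stretch holds none of the 3. The same stretches of Mrps12, Mrpl12 and Mrpl28, also among the members that followed the others most closely, hold none either. Nor does that of Mrpl47, which ran against them, so the 4 shown do not stand for either end. In windows from 250 bases before to 50 after the start, 67 of the 76 members matched RefSeq, with 73 windows. The ETS motif stood in 32.9% of these windows against 8.86% of all 32851 windows, NRF1 in 11% against 2.71%, YY1 in 16.4% against 2.75%, and any of the 3 in 49.3% against 13.3%. These shares are descriptions of letters, not of bound factors. Any motif was present in 22 of 38 members with a correlation of at least 0.5 to the mean of the other members (57.9%) and in 14 of 29 below it (48.3%).

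Libraries held 12231736 to 40386035 counts, the highest total being that of BXD51. All 12 hypothalamic markers, such as Pomc, Agrp and Avp, were present in every library, and their summed level ran from 432 to 1044 CPM (counts scaled to the library total). Markers of neighbouring structures ranged more widely: 5 choroid plexus markers summed to 37.4 to 890 CPM, 5 striatal markers to 119 to 708 CPM and 5 meningeal markers to 71.2 to 285 CPM. Of 5 blood markers, the 4 haemoglobin genes were listed at 0 in every library. In bulk tissue, fewer cells of a type and less RNA per cell cannot be told apart.

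All 76 genes were detected, and most at similar, moderate levels. To set genes side by side, levels were divided by transcript length (CPM per kilobase, mean ± SD over the 36 lines). The median was 17.3 CPM per kilobase over all members, 18.7 for the large and 14.3 for the small subunit. Highest were Mrpl41 at 46.9 ± 6.75 (SD, n = 36 lines), Mrpl20 at 44.1 ± 4.57, Mrps18a at 41.7 ± 3.83, Mrpl42 at 36.9 ± 3.63 and Mrpl10, which anchors the stalk of the large subunit, at 35.8 ± 2.72 CPM per kilobase. The SDs of neighbours in this order overlapped, so the order within these 5 is not firm. Lowest were Mrpl23 at 1.31 ± 0.340, Mrps36 at 1.40 ± 0.331, Mrpl48 at 3.35 ± 1.60, Mrps35 at 3.63 ± 0.281 and Mrpl47 at 4.11 ± 0.403 CPM per kilobase. The order depends on the length used. Divided by the summed length of all annotated exons in place of the principal transcript, Mrpl41 (40.9) and Mrpl10 (35.8) were still the highest and Mrpl23 (0.185) and Mrps36 (0.770) the lowest, but Mrpl20 had 20.2, Mrps18a 9.98 and Mrpl42 6.67 CPM per kilobase, and Mrpl33 (1.75) came next above the lowest pair.

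Mrpl23 and Mrps36 stood well below the other subunits on this scale. Mrpl23 is a relative of the bacterial protein at the peptide exit of the ribosome, and Mrps36, despite its name, has since been assigned to the 2-oxoglutarate dehydrogenase complex. They had 0.904 ± 0.235 and 0.981 ± 0.232 CPM (SD, n = 36), 10 to 34 and 10 to 46 reads per library, and are the only 2 of the 76 with a mean under 1 CPM. Both, and Mrpl48, have a pseudogene copy in the annotation, so that reads shared between copies could have been split or dropped in counting and their levels are uncertain. At 31 members another gene overlaps on the opposite strand; the library kit keeps strand, but whether counting used it is not given in the sources used here.

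**Figure D1:**
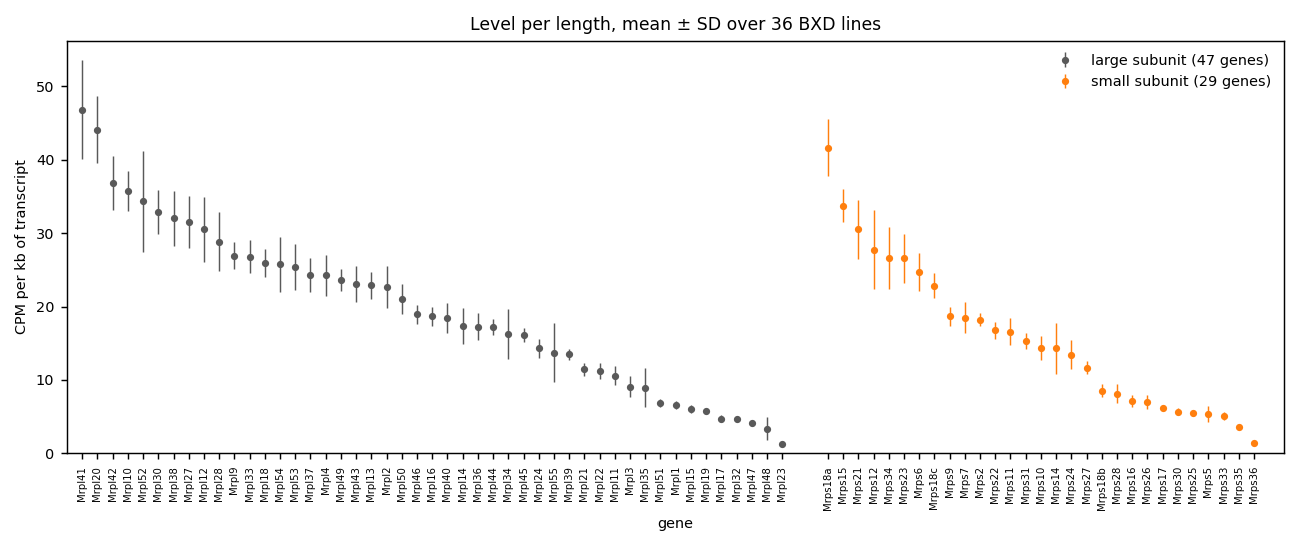
Level per length of the principal transcript of each of the 76 genes in CPM per kilobase on a linear axis from 0, as mean and SD over the 36 BXD lines, with the genes of each subunit sorted by level. Both subunits fall off gradually, from Mrpl41 at 46.9 to Mrpl23 at 1.31 and from Mrps18a at 41.7 to Mrps36 at 1.40; with exon lengths Mrps18a is at 9.98.

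The level of the module as a whole was taken as a sum, and no sum over other genes was set beside it. The summed level of the 76 genes ran from 1580 CPM in BXD43 over a median of 1900 to 2162 CPM in BXD51, a 1.37-fold range. DBA/2J had 1840, B6D2F1 1889, C57BL/6J 1919 and D2B6F1 1938 CPM, all within the range of the lines. The ratio of large- to small-subunit sums stayed between 1.76 and 1.98. The SD of log2 CPM over the lines had a median of 0.154 over the members, beside 0.150 over all 14363 genes with a mean of at least 1 CPM and a known length, so the members varied about as much as other genes.

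Single members differed far more. Leaving aside Mrpl23 and Mrps36, the SD of log2 CPM was largest for Mrpl48 (0.82), Mrpl35 (0.52), Mrpl55 (0.38), Mrps14 (0.34), Mrps12 (0.32) and Mrps5 (0.32). Mrps2, Mrps17 and Mrpl39 were the steadiest, at 0.071, 0.074 and 0.080, where read counting alone would give 0.049, 0.054 and 0.055. Mrps2, for example, lay between 34.6 and 42.2 CPM in all 36 lines. Of the 6 most variable, 5 parted the lines into a low and a high set, while the widest step of Mrps12 was 0.12 log2 units.

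The parting was measured as the widest step between neighbours when the lines are sorted by level, with at least 6 lines on each side. The 6 widest steps belonged to Mrpl48, Mrpl35, Mrpl55, Mrps14, Mrps5 and Mrpl3. A step of at least 1 log2 unit was found in 1 of the 74 members with a mean of at least 1 CPM and in 0.476% of 14487 such genes. A step of at least 0.5 was found in 2 members and in 1.3% of genes, so large steps are rare both in and outside the module, and no test was made of them.

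Mrpl48, a large-subunit protein, ranged from 4.64 CPM in BXD49 over a median of 18.5 to 21.8 CPM in BXD51. Its sorted lines broke between 7.23 and 17.7 CPM, a step of 1.28 log2 units, with 15 lines below and 21 above and none between. C57BL/6J had 15.7 CPM, DBA/2J 8.51, B6D2F1 12.3 and D2B6F1 14.6 CPM. All 4 fell inside the empty interval, the C57BL/6J library nearer the high set and the DBA/2J library nearer the low set.

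Mrpl35, a relative of a bacterial large-subunit protein, ranged from 15.8 CPM in BXD83 over a median of 38 to 43.8 CPM in BXD45. The break lay between 18.7 and 33.9 CPM (0.85 log2 units), with 9 lines below and 27 above. C57BL/6J had 37.6 CPM, among the high lines, and DBA/2J 21.3, B6D2F1 29.2 and D2B6F1 24.9 CPM, all inside the interval.

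Mrpl55, which bacteria lack, ranged from 8.85 CPM in BXD101 over 11.3 to 23.1 CPM in BXD55. It broke between 12.9 and 16.9 CPM (0.39 log2 units), with 27 lines below and 9 above. C57BL/6J at 18.7 CPM lay with the high set and DBA/2J at 12.6 CPM with the low set. B6D2F1 at 15.5 and D2B6F1 at 14.4 CPM lay between the sets.

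Mrps14 was the one of the 6 that was higher in DBA/2J. It ranged from 31.2 CPM in BXD71 over 36.6 to 64.1 CPM in BXD51 and broke between 37.0 and 47.8 CPM (0.37 log2 units), 19 lines below and 17 above. C57BL/6J had 37.6, DBA/2J 45.6, B6D2F1 40.4 and D2B6F1 43.0 CPM, all inside the interval.

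Mrps5, a relative of the bacterial protein at the messenger RNA entry and a gene that has been studied in BXD mice for lifespan, ranged from 16.1 CPM in BXD90 over 26.3 to 32.2 CPM in BXD32. It broke between 20.2 and 24.7 CPM (0.29 log2 units), with 14 lines below and 22 above. C57BL/6J at 27.4 CPM was among the high lines and DBA/2J at 19.8 CPM among the low ones, with B6D2F1 at 23.8 and D2B6F1 at 21.5 CPM between.

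Mrpl3 had the smallest of the 6 steps, 0.18 log2 units, between 36.3 and 41.2 CPM. Its lines ranged from 29.2 CPM in BXD49 over 33.5 to 46.5 CPM in BXD50, with 25 below the step and 11 above. C57BL/6J at 42.5 CPM lay above the step, DBA/2J at 34.8 and B6D2F1 at 35.9 CPM below it, and D2B6F1 at 37.8 CPM between. The next widest step of a member was 0.12 log2 units, for Mrpl2.

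Across the 6 genes both F1 libraries lay between the parents in all 6, and 11 of the 12 F1 values lay inside the empty intervals. The parents, which are homozygous like the lines, lay inside them in 5 of 12 values. Such counts were made for these 6 only and not for other genes with steps, so they cannot be called particular to the members. The 6 genes lie on 6 different chromosomes (7, 6, 11, 1, 2 and 9, in the order given) and parted the lines differently: any 2 of them put 10 to 24 of the 36 lines on matching sides.

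**Figure D2:**
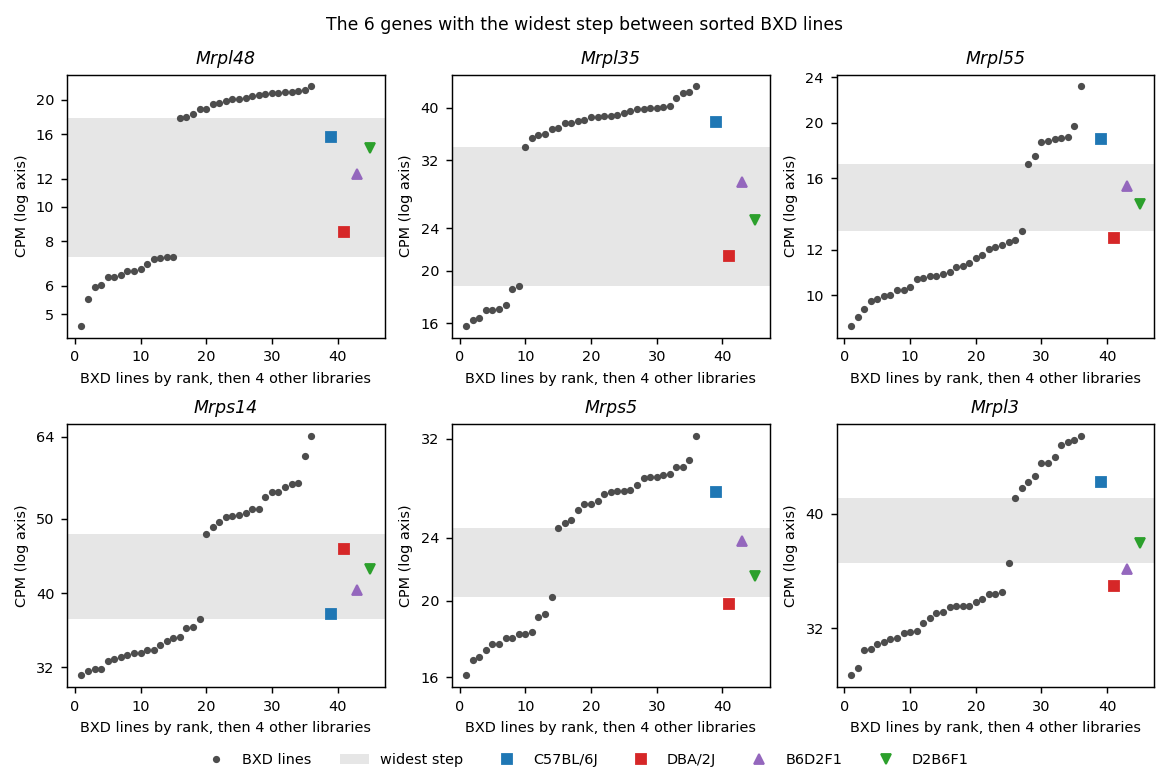
CPM (log axis) of the 6 genes with the widest steps, with the 36 BXD lines sorted by level, then C57BL/6J, DBA/2J, B6D2F1 and D2B6F1; the grey band is the widest step. For Mrpl48 the band from 7.23 to 17.7 CPM holds no line and all 4 other libraries.

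The genes most like these members over the lines were looked up next; since they were chosen by that likeness, the lines they share describe it and do not test it. For the 3 widest steps, the 3 genes with the largest absolute correlation to each over the lines were taken, and those named here lay on the member's chromosome. For Mrpl48 these were Trim12a (141 protein-coding genes away), Ucp3 (an uncoupling protein of the inner mitochondrial membrane, 3 away) and Myo7a (39 away). The widest step of each of these put 35 of 36 lines on the same side. For Mrpl35 they were Ptcd3 with 36 of 36 lines, and Tgoln1 and Polr1a (the largest subunit of RNA polymerase I) with 35 each. Tgoln1 lies 17 genes away and Polr1a 2.

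Ptcd3 lies 1 protein-coding gene away from Mrpl35 and is itself a small-subunit protein of the mitochondrial ribosome. Its level was 50.9 CPM in the C57BL/6J library against 39.6 in the DBA/2J library, and its own step, 0.26 log2 units, was smaller than that of Mrpl35. For Mrpl55 they included 2610507I01Rik (35 lines), with no counted gene in between, and Galnt10, 51 genes away, with 33.

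The same listing for the other 3 members was added after their values had been seen. Rfwd2, 3 genes from Mrps14, parted all 36 lines in the opposite direction, low where Mrps14 was high, and Klhl20, 7 genes away, and BC026585, which matched no annotated gene, parted 32 in the opposite direction. Ciao1, a cytosolic iron-sulphur assembly protein 10 genes from Mrps5, and Ap4e1, 16 genes away, parted all 36 lines as Mrps5 did, and Ncaph parted 34 in the opposite direction. For Mrpl3 they were Pik3r4 (35 lines), Nudt16 (34) and Aste1 (23). Such counts take the larger of matching and opposite sides, unlike the 10 to 24 matching lines between the 6 members. Mrpl3 and Mrpl55, on different chromosomes, put 24 lines on matching sides, so the 23 of Aste1 is no more than that. Distances are numbers of protein-coding genes of the count table lying between, placed by GENCODE vM21, since the counts were made on mm9. Other annotated genes were not counted.

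Large differences between the parents were rare in the module, as they were over all genes. No member differed by 1 log2 unit or more between the C57BL/6J and DBA/2J libraries, beside 0.649% of the 12166 genes with at least 5 CPM in either. A difference of at least 0.5 was found in 3 of 74 members, all higher in C57BL/6J, beside 2.99% of genes, of which 259 of 364 were higher in C57BL/6J. Whether reads carrying DBA/2J alleles aligned to the reference as well as C57BL/6J reads was not tested. The largest were the 3 members with the widest steps: Mrpl48 at 0.88 ± 0.12 (log2, counting SE, 1 library a side), Mrpl35 at 0.82 ± 0.077 and Mrpl55 at 0.57 ± 0.10, then Mrps5 at 0.47 ± 0.084 and Mrpl41 at 0.37 ± 0.067. Highest in DBA/2J were Mrps14 at -0.28 ± 0.063, Mrps35 at -0.26 ± 0.10, Mrps18b at -0.23 ± 0.14, Mrps24 at -0.22 ± 0.11 and Mrpl32 at -0.19 ± 0.11. The median was 0.017 over the members and 0.0093 over all genes.

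In 19 members the parental difference was over 2 counting SEs, 16 of them higher in C57BL/6J, and in 14 of the 19 both F1 libraries lay between the parents. These counts were not made over all genes, so they cannot be called particular to the members. Choosing members whose parents lie far apart also favours F1 values between them. The reciprocal F1 hybrids differed less: 0 of 74 members reached 0.5 log2 units, beside 0.8% of 12126 genes. Among these 74, which leave out Mrpl23 and Mrps36 for their low counts (Mrps36 had 0.76 ± 0.40), the largest values for B6D2F1 minus D2B6F1 were -0.30 ± 0.099 for Mrps18c, -0.25 ± 0.066 for Mrps15 and -0.25 ± 0.10 for Mrpl48, and 0.23 ± 0.072 for Mrpl35, 0.16 ± 0.077 for Mrpl40 and 0.16 ± 0.14 for Mrps28. Mrpl41, a large-subunit protein at 41.2 CPM in the C57BL/6J library against 31.9 in the DBA/2J library, had B6D2F1 at 36.1 and D2B6F1 at 37.0 CPM between them, and its lines ran from 28.1 to 44.6 CPM with no step above 0.090 log2 units.

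Between strain groups, no member passed. Over the 36 lines against the 4 parental and F1 libraries, edgeR's quasi-likelihood test with Benjamini-Hochberg adjustment over 16198 genes called 0 members and 0 genes (0%); at an unadjusted p under 0.05 there were 0 members and 163 genes, and DESeq2 called 0 with 206 unadjusted. The smallest p among members was that of Mrpl47 (log2 fold change 0.13 ± 0.078 SE). Its log2 fold change was 0.063 without the C57BL/6J library and 0.28 against the 2 parents alone. Against the 2 parents alone, edgeR had 1 member and 227 of 16407 genes at an unadjusted p under 0.05, and called 0. For the 2 F1 libraries against the 38 inbred ones, edgeR called 0 members and 0 of 16434 genes (0%), with 0 members and 109 genes at an unadjusted p under 0.05, and DESeq2 called 0 with 133 unadjusted. The smallest p was that of Mrpl33 (0.18 ± 0.089 SE).

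The study's title names Fgf15, a secreted growth factor expressed in the hypothalamus, and so the members were fitted against log2 Fgf15 over the 36 lines. No member was called by edgeR, beside 1 of 14994 genes (0.00667%), and none by DESeq2, which called 3 genes. At an unadjusted p under 0.05 edgeR had 2 members and 753 genes, and DESeq2 2 members and 957 genes. The smallest p was that of Mrpl42, with a slope of 0.068 ± 0.026 SE per log2 unit of Fgf15.

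Most members did rise and fall together from line to line. The correlation of a member with the mean of the other members over the 36 lines had a median of 0.59, and 44 of 76 reached 0.5 while 11 lay below 0. The correlation of any gene with the mean of the members had a median of -0.0018 over all genes with at least 1 CPM, with 19.9% of 14487 at 0.5 or more and 50.1% below 0. These correlations are descriptions over 36 libraries that share preparation and normalization. Highest were Mrpl43 (0.93), Mrps12 (0.89), Mrpl12 (0.89), Mrps26 (0.88) and Mrpl28 (0.88), and lowest were Mrpl1 (-0.54), Mrpl32 (-0.31) and Mrpl47 (-0.28). The 6 members with the widest steps lay between -0.25 (Mrps5) and 0.13 (Mrpl55).

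Mrpl43, a large-subunit protein, ran from 21.6 CPM in BXD43 over 33.1 to 38.1 CPM in BXD51, with C57BL/6J at 33.2, DBA/2J at 32.8, B6D2F1 at 33.8 and D2B6F1 at 34.7 CPM. Mrpl12, a stalk protein that has also been described as a partner of the mitochondrial RNA polymerase, ran from 21.8 CPM in BXD43 over 41.8 to 47.6 CPM in BXD51. Mrps12, a relative of the bacterial decoding-site protein, ran from 12.4 CPM in BXD63 over 26.1 to 32.5 CPM in BXD51. In each of these 3 genes BXD43 and BXD32 were among the 3 lowest lines and BXD51 was the highest. Mrpl1, which forms the stalk at the exit of transfer RNA, ran from 20.5 CPM in BXD98 over 22.9 to 28.1 CPM in BXD32. It was above its median in BXD43 (26.2 CPM), where those 3 genes were low, and also in BXD51 (24.7 CPM), where they were highest.

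**Figure D3:**
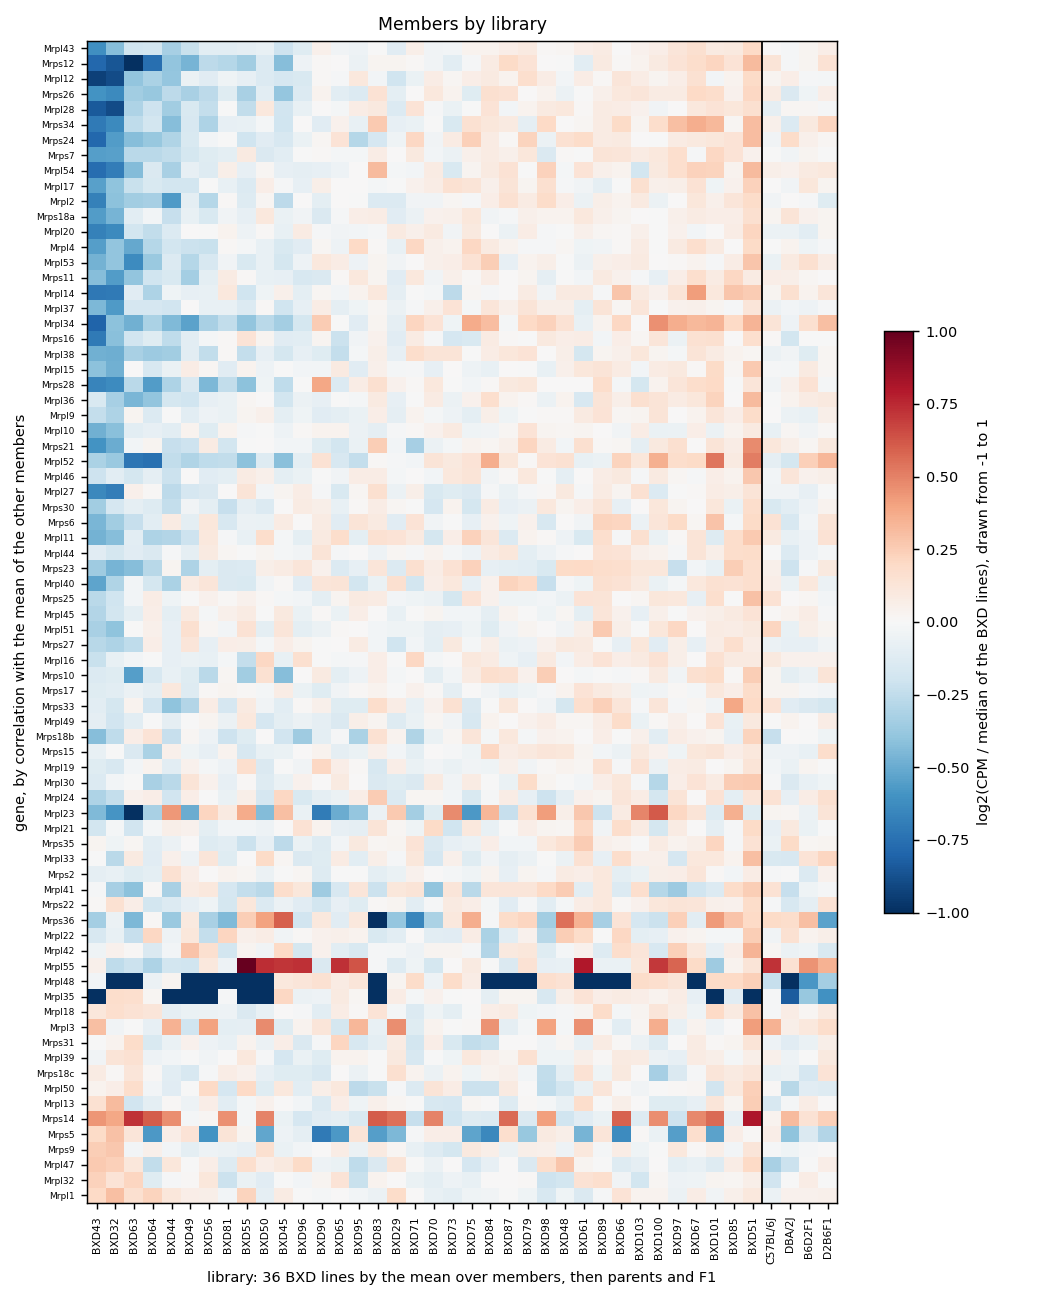
Colour scale of log2 CPM relative to each gene's median over the BXD lines, drawn from -1 to 1, for the 76 genes (rows, sorted by correlation with the mean of the other members) in the 40 libraries (columns, the 36 BXD lines sorted by the mean of the members, then the parents and F1). The members with the highest correlations are low in BXD43 and BXD32 and high in BXD51, while Mrpl1 is high in BXD43 and BXD32.

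The joint movement followed that of the nuclear genes for respiratory chain and ATP synthase subunits. The mean log2 CPM of the members and of 76 such oxidative phosphorylation genes had a correlation of 0.94 over the 36 lines (Spearman's rho 0.88), and of 0.88 without the 2 lines farthest from the median, BXD43 and BXD32. The means of the large and the small subunit had a correlation of 0.92. As a fit across all genes, edgeR's quasi-likelihood test of the slope on the oxidative phosphorylation mean called 52 members higher and 1 lower of 76. The background was wide: of 14919 genes, 24.9% were called higher and 23.8% lower. DESeq2 called 51 members higher and 1 lower, beside 17.5% and 17.6% of genes. The median slope was 0.62 over the members and -0.019 over all genes, in log2 units per log2 unit of the list mean, which itself ran from 5.50 to 6.15.

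Both subunits and both naming groups took part. Higher slopes were called in 19 of 28 large-subunit members with a bacterial relative, 12 of 19 other large-subunit members, 11 of 16 small-subunit members with a bacterial relative and 10 of 13 others. The smallest adjusted p-values of edgeR's test belonged to Mrpl43 with a slope of 1.29 ± 0.11 SE (adjusted p = 3.07e-11), Mrpl12 with 1.90 ± 0.17 and Mrps34 with 1.86 ± 0.17. Mrpl54 (1.77 ± 0.17), Mrpl28 (1.78 ± 0.18), Mrps24 (1.75 ± 0.18), Mrps18a (1.09 ± 0.11), Mrpl2 (1.47 ± 0.16), Mrps26 (1.59 ± 0.17) and Mrps12 (2.28 ± 0.25) completed the first 10. Mrpl1 was the only member called lower, with -0.51 ± 0.14 (adjusted p = 0.00205).

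The 6 members with the widest steps had no called slope, among them Mrps5 with -0.69 ± 0.41 SE (edgeR adjusted p = 0.168) and Mrpl48 with 0.63 ± 1.1 (adjusted p = 0.659). Nor had Mrpl32 (-0.31 ± 0.16, adjusted p = 0.108) and Mrpl47 (-0.34 ± 0.19, adjusted p = 0.138), both low in their correlation with the other members.

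**Figure D4:**
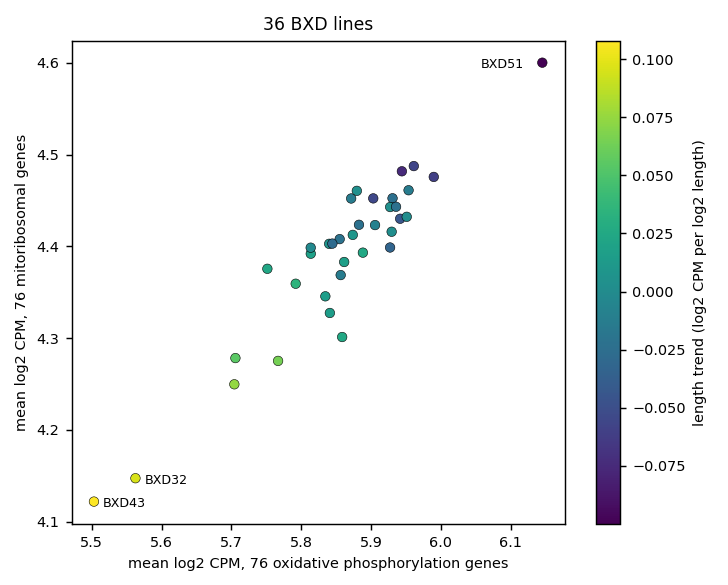
Mean log2 CPM of the 76 members against mean log2 CPM of 76 oxidative phosphorylation genes, 1 point per BXD line, coloured by the length trend of its library (log2 CPM per log2 transcript length, over other genes). The lines form a rising band with a correlation of 0.94; BXD43 and BXD32, with the highest length trends, lie at the lower end and BXD51, with the lowest, at the upper end.

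Properties of the libraries moved with this pattern. For each library the trend of log2 CPM with transcript length, and with GC content, was taken over all genes other than the members and the oxidative phosphorylation list. The mean of the members had a correlation of -0.91 with the length trend over the 36 lines (-0.87 without 2 lines), so that it was low in libraries where long transcripts were high. With the GC trend the correlation was 0.82 (0.67 without 2 lines), with log2 total counts 0.30, with the mean of the hypothalamic markers 0.70 and with that of the neuronal markers -0.010. The hypothalamic marker mean itself had a correlation of -0.81 with the length trend.

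Members are short, with a median transcript of 1284 bases against 3092 over all genes, and their GC content, 50.8%, was near the 50.4% of all genes. Across the 76 members, which are not independent replicates, the slope on the oxidative phosphorylation mean had a correlation of 0.73 with GC content and -0.41 with log2 length. The 11 members below a correlation of 0 had a median GC content of 45.3%, and the 20 at 0.8 or above 55.7%.

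With the length trend as a covariate, edgeR called 15 members higher and 0 lower, beside 6.09% of genes higher and 3.08% lower. With the GC trend it called 26 higher and 0 lower, beside 3.71% and 3.82%, and with both trends 16 and 0, beside 5.32% and 2.87%. Without BXD43 and BXD32 it called 38 higher and 0 lower, beside 11.1% and 12.2%. Mrpl43 kept a called slope in each of these fits (1.02 ± 0.23 SE with the length trend, 0.95 ± 0.16 with the GC trend, 0.90 ± 0.22 with both). The median slope of the members was 0.44 with the length trend, 0.62 with the GC trend, 0.39 with both and 0.63 without the 2 lines. Mrps26 and Mrps12 lost their calls with the length trend (slopes of 0.68 ± 0.33 and 0.98 ± 0.48, adjusted p = 0.189 and 0.196). Mrpl1 lost its call with the length trend, where its slope was as large but its SE wider (-0.53 ± 0.31, adjusted p = 0.286), with the GC trend (-0.032 ± 0.20, adjusted p = 0.956), with both (-0.31 ± 0.28) and without the 2 lines (-0.40 ± 0.19, adjusted p = 0.130). What part length, GC content or RNA quality had in the remaining slopes was not tested.

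**Figure D5:**
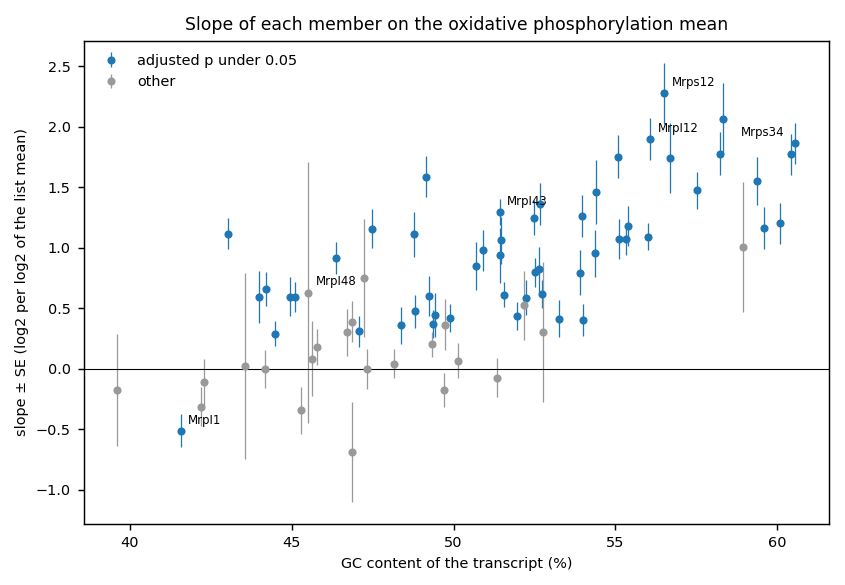
Slope of each member on the mean of the oxidative phosphorylation genes (log2 per log2 unit) against the GC content of its transcript in percent, with bars of 1 SE and colours for whether edgeR called it. Some members rich in GC, such as Mrps34 and Mrpl28, have slopes near 1.8 and others have lower ones, and Mrpl1, poor in GC, has -0.51.

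Genes that work with the mitochondrial ribosome did not all rise with the oxidative phosphorylation mean. Of the 6 ribosomal proteins with other names, 3 had higher slopes and 0 lower: Aurkaip1 (1.39 ± 0.20 SE), Ict1, a peptide release protein built into the large subunit (0.99 ± 0.19), and Gadd45gip1 (1.63 ± 0.33). Of 20 tested assembly factors, 11 were called higher and 2 lower; Rbfa, which matures the small subunit's RNA, had 1.23 ± 0.18, and the GTPase Gtpbp10 -0.72 ± 0.22. Of 17 mitochondrial aminoacyl-tRNA synthetases, 6 were called higher, such as Aars2 (0.98 ± 0.19), and 2 lower, such as Rars2 (-0.59 ± 0.15).

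Of 15 factors that drive translation itself, 3 were called higher and 6 lower. All genes also went both ways in this fit, with 24.9% called higher and 23.8% lower. The elongation factors Tufm (1.15 ± 0.29 SE) and Tsfm (0.94 ± 0.15) rose with the list, while Gfm1, which moves the ribosome along (-0.46 ± 0.11), and Guf1 (-0.54 ± 0.15) fell. Of 11 regulators of mitochondrial gene expression, 2 were called higher and 6 lower. Esrra, a nuclear receptor (1.26 ± 0.23), and Polrmt, the mitochondrial RNA polymerase (0.95 ± 0.23), rose, and Ppargc1a, the coactivator of mitochondrial biogenesis (-1.15 ± 0.17), Gabpa, the DNA-binding subunit of GABP (-0.76 ± 0.14), and Tfam (-0.41 ± 0.12) fell. The shares in each list stand beside the same 24.9% and 23.8% of all genes.

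These lists also differ in transcript length, with medians of 1918 bases for the assembly factors and 3755 for the regulators. With the length trend as a covariate, 1 gene of these 5 lists was called, a tRNA synthetase. In that fit 6.09% of all genes were called higher and 3.08% lower. The median slopes did not all shrink: they went from 0.69 to 0.75 for the ribosomal proteins with other names, from 0.15 to 0.42 for the tRNA synthetases and from 0.41 to 0.32 for the assembly factors, while the regulators turned from -0.38 to 0.093 and the translation factors from 0.17 to -0.18. Without BXD43 and BXD32, the regulators had 1 called higher and 5 lower of 11, the assembly factors 3 and 0 of 20, and the translation factors 1 and 0 of 15. The shares of all genes without these 2 lines were 11.1% higher and 12.2% lower. In the comparisons between strain groups and against Fgf15, edgeR called 0 genes of these lists.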

How the data were processed

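The authors' deposited table holds raw read counts per gene for 40 hypothalamus libraries (1 µg pooled RNA, 100-bp single-end reads, per the labels' protocols); a second deposited table, a normalized signal, holds counts divided by a size factor per library for 15251 gene names. The counts behind both tables are not identical: 42.6% of the members' values were equal, and the totals of 94.7% of members differed by under 5%. TopHat2 2.0.8, HTSeq 0.5.4p3, DESeq and mm9 are named in the submitters' processing notes. From the counts, log2 CPM (TMM factors, prior count 2) and quasi-likelihood tests (edgeR 4.0.16, filterByExpr, R 4.3.3; called at an adjusted p under 0.05 over all genes) were computed, and tested on simulated data; DESeq2 1.42.0 was an alternative. All 76 members passed the filter. Slopes were fitted without the genes that form the covariate. Lengths and GC content are of the principal transcript in GENCODE vM21 (98.3% of symbols matched); promoters are from RefSeq (GRCm38.p6). Where read, values of the normalized table were whole reads (100%, tolerance 0.01).

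Members, lists and tests were chosen with earlier results of these data known. Named by rule were members called in a test (up to 10 a direction), the highest and lowest per length, the most and least variable, those with the widest steps, the largest parental and reciprocal differences, and the strongest and weakest correlations with the other members, plus Mrps5 and Mrpl12, the 3 genes most like each of the 3 members with the widest steps, and up to 5 called genes of each further list; 1 gene that the rule names is not reported here. Correlations between libraries were 0.969 to 0.997, and no pair agreed within sampling noise (lowest chi-square per gene 4.88). Counting SEs cover counting error only.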

Additional observations from a re-analysis of the deposited data

How the results depend on the processing

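The 2 F1 hybrids and 2 parents limit the strain-group tests, and counting noise limits Mrpl23 and Mrps36. Members called were 0 in the comparisons of the lines with the parental and F1 libraries, of the F1 with the inbred libraries and with Fgf15 under every alternative run (DESeq2, no filter, RLE factors, the normalized table, the 2 parents only, and for Fgf15 without 2 lines); leaving out each parental or F1 library in turn gave 0 to 0. Where an arm was left with 1 sample, that sample was assumed to vary like the others. No paired analysis was possible because strains were sequenced as single libraries and the groups share no pairing.

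Members called on the oxidative phosphorylation mean, 53 in all, fell to 15 with the length trend as a covariate, to 26 with the GC trend and to 16 with both; the GC covariates were chosen after seeing the data. The other alternatives gave 38 (without BXD43 and BXD32) to 52 members. The number of members with a step was 1 at 1 log2 unit and 2 at 0.5. The median correlation with the other members was 0.59, and 0.49 without 2 lines. Parental counts of 0 and 3 members were the same with the normalized table, a minimum of 1 CPM and RLE factors. No member named and no count reversed its direction among the alternatives run, but of the 5 further lists the median slope of the regulators turned from -0.38 to 0.093 with the length trend and 0.083 with both trends (-0.050 with the GC trend), and that of the translation factors from 0.17 to -0.18 with the length trend.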
